A study of Mus musculus with 2 samples.

Results

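The Hox cluster microRNAs are the 6 microRNA genes that carry a Mir symbol inside the 4 Hox clusters of the mouse: Mir10a, Mir10b, Mir196a-1, Mir196a-2, Mir196b and Mir615. They were chosen by position and matched by Ensembl gene identifier, and they are 6 of the 2202 gene rows of the deposited tables. MicroRNAs were sequenced from RNA inserts under 30 nt of the gastrocnemius, the large calf muscle of the hindlimb. The tissue came from male B6CASTF1/J mice, for which the labels name no treatment, at 2 months of age. This strain name stands for first-generation hybrids of C57BL/6J and CAST/EiJ. The series holds 1 group with 2 libraries, labelled biological replicates 1 and 2. The labels give each library its own biosample and mouse number but 1 shared donor identifier, so the separation of the animals rests on those labels. No other muscle, forelimb tissue or age was part of the series, so the data give levels and their spread between libraries, not an effect of a condition.

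Hox genes encode homeodomain transcription factors that give cells their position along the body axis and along the limb, and their order on the chromosome follows their order of use. The microRNA genes between them belong to 3 families. The miR-10 genes sit next to Hoxb4 and Hoxd4. The miR-196 genes lie on the upstream side of Hoxa9, Hoxb9 and Hoxc9, and in the mouse embryo miR-196 silences Hoxb8 by cleaving its messenger RNA. The third family is miR-615, in an intron of Hoxc5. A microRNA finds its messenger RNAs mainly through its seed, bases 2 to 8 from the 5′ end.

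The 5 mature sequences below are printed because they decide which reads can be told apart. They come from the RefSeq table of GRCm38.p6, which matched all 6 genes. Capitals mark the seed.
miR-10a-5p (Mir10a): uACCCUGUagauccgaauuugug
miR-10b-5p (Mir10b): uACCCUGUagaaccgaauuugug
miR-196a-5p (Mir196a-1 and Mir196a-2): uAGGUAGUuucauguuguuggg
miR-196b-5p (Mir196b): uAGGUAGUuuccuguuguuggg
miR-615-3p (Mir615): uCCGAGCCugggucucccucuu

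The miR-10 pair shares the seed ACCCUGU and differs at 1 of 23 bases, U12A, with the miR-10a base first and positions counted from the 5′ end. The miR-196 sequences share the seed AGGUAGU and differ at 1 of 22 bases, A12C, with the miR-196a base first. In both families the difference lies outside the seed. No other mature microRNA of the RefSeq table had the seed of miR-10, miR-196 or miR-615-3p.

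Mir196a-1 and Mir196a-2 encode the same 22-base mature microRNA. It is the longest stretch that the hairpins have in common, shown here in capitals with 4 bases of each hairpin on either side, both on the plus strand.
Mir196a-1 (GRCm38.p6, chr11:96265183-96265212): gaagUAGGUAGUUUCAUGUUGUUGGGccug
Mir196a-2 (GRCm38.p6, chr15:102973361-102973390): ggcuUAGGUAGUUUCAUGUUGUUGGGauug
The flanking bases differ from the first position on both sides. A read that ends within the capitals therefore matches both places exactly. The tables keep reads that match several places apart from the gene counts, as a total that made up 75.2% of all reads in replicate 1 and 74.4% in replicate 2. Set base by base from the 5′ end without alignment, the 3p arms of these hairpins differ at 17 of 22 bases. Their longest identical stretch, 5 bases, is moved by 1 base between the arms, so 17 is not an aligned count. A stretch of at least 20 bases that recurs in a second microRNA gene was found in these 2 of the 6 genes, and in 1087 of all 2202 genes. Their counts are read as uncertain and as lower limits of what the hairpins yield. The longest stretch shared by the hairpins of Mir10a and Mir10b was 15 bases. How reads with a mismatch were placed is not given in the sources used here, so a read with an error at position 12 could count for the other gene of a pair.

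In the mm10 assembly with GENCODE M21, Mir10b (ENSMUSG00000065500.3) lies on chromosome 2 at 74726070 to 74726137, plus strand, in introns of Hoxd4 and Hoxd3. Mir10a (ENSMUSG00000065519.1) lies on chromosome 11 at 96317165 to 96317274, plus strand, outside any other gene and 993 bases before Hoxb4. Mir196a-1 (ENSMUSG00000065546.1) lies on the same chromosome and strand at 96265164 to 96265265, outside any other gene and 6192 bases before Hoxb9. Mir196b (ENSMUSG00000065443.1) lies on chromosome 6 at 52230081 to 52230165, minus strand, in an exon of noncoding transcripts of Hoxa9 and 1032 bases from Hoxa10. In the HoxC cluster, on the plus strand of chromosome 15, Mir196a-2 (ENSMUSG00000065488.2) spans 102973350 to 102973434 and Mir615 (ENSMUSG00000076010.1) spans 103014910 to 103015001. Both fall in introns of Hoxc5 as annotated, Mir196a-2 with Hoxc9 3005 bases downstream. A seventh gene of type miRNA, Gm44463, is annotated on the minus strand between Hoxd9 and Hoxd8. It is not among the 6 and had 0 counts in both libraries.

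**Figure D1:**
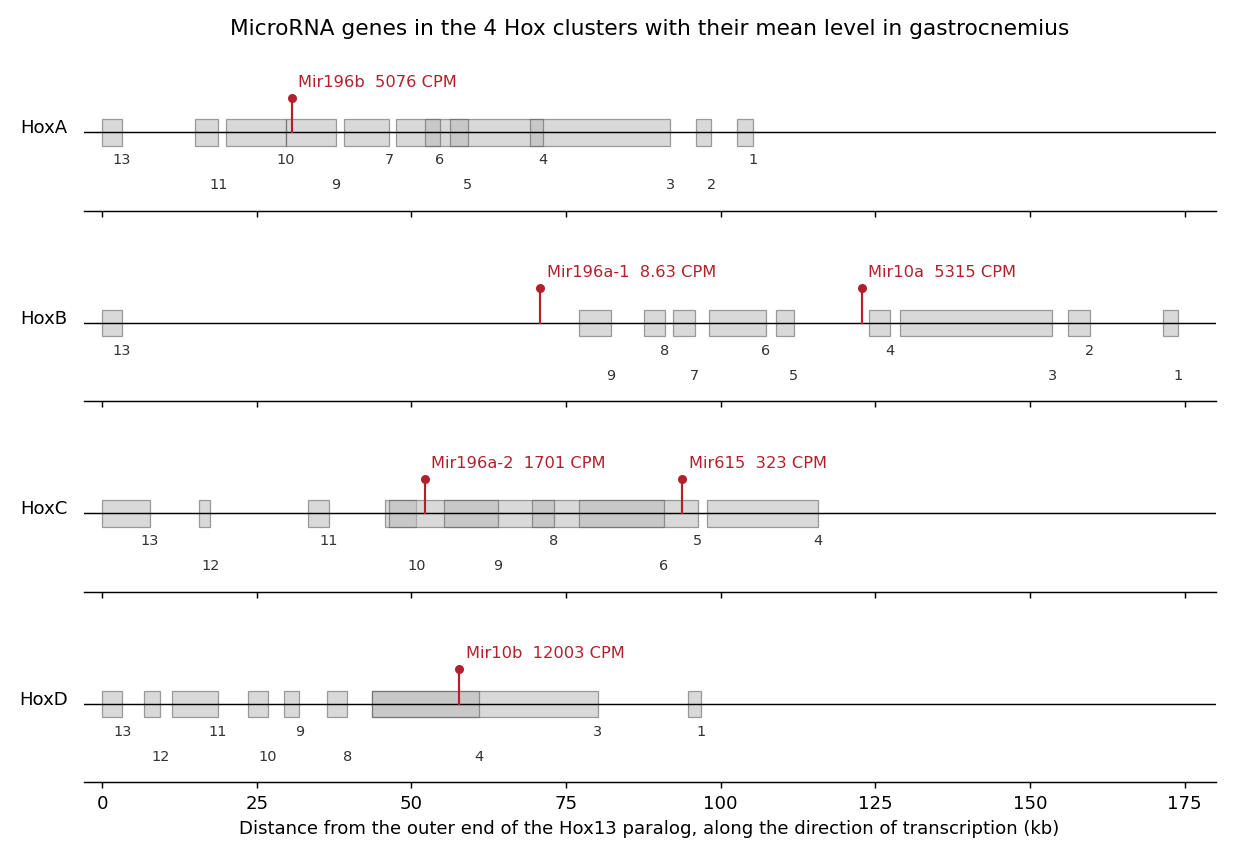
Hox genes (grey boxes, paralog number below the downstream end of each box) and microRNA genes (red) of the 4 clusters, drawn to scale as distance in kb from the outer end of the Hox13 paralog; overlapping boxes are darker. Each red label gives the mean level of both libraries, from 8.63 CPM for Mir196a-1 to 12003 CPM for Mir10b.

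Depth differed between the libraries. The gene counts summed to 638779 in replicate 1 and to 2272132 in replicate 2, which is 3.56 times as many. Levels are given as CPM, the counts scaled to a total of 1000000 per library. Each counted read is a short RNA and the mature sequences above are 22 or 23 bases long. Levels of different genes are therefore set side by side without a scaling for length. How evenly different sequences entered the libraries was not tested, so orders and ratios between genes are those of reads. The limit for a gene without a count, 3 counts, came to 4.70 CPM at the depth of replicate 1, and to 1.32 CPM at that of replicate 2. The interval printed after a level is the exact 95% interval of Clopper and Pearson. Neither these nor the limits hold more than the error of counting, because reads amplified by PCR and not marked by molecular identifiers need not be separate molecules. The defining markers of striated muscle, the labelled tissue, were present: 9 of 9 stood at 2 CPM or more in both libraries, with a sum of 22884 CPM in replicate 1 and 52158 CPM in replicate 2. Most of that sum was Mir206, a microRNA of skeletal muscle, with 20325 CPM in replicate 1 and 48078 CPM in replicate 2. The genes Mir1a-1, Mir133a-1, Mir133a-2 and Mir133b, which share 20 or more bases with other microRNA genes, stood between 4.84 and 21.9 CPM. Mir1a-2 also shares such a stretch, and it stood at 261 CPM in replicate 1 and 269 CPM in replicate 2.

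All 6 genes were detected, taken as 2 CPM or more in both libraries, against 13.8% of the 2202 genes in the tables. Together they held 23654.5 CPM in replicate 1 (2.37% of counts, interval 2.33 to 2.40%) and 25199.7 CPM in replicate 2 (2.52%, interval 2.50 to 2.54%), a mean of 2.44% ± 0.109 (SD, n = 2). Of the 6, 4 stood at 1000 CPM or more in both libraries, where 2.5% of all genes stood. The levels of the 6 spread widely, with Mir10b at the top, at a mean of 12003 CPM, and Mir196a-1 at the bottom, at a mean of 8.63 ± 3.35 CPM. In bulk tissue, fewer cells of a type and less RNA per cell cannot be told apart.

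The miR-10 genes gave most of this signal. Mir10b of the HoxD cluster had 7485 counts in replicate 1 and 27921 in replicate 2. These are 11718 CPM (interval 11455 to 11985) and 12288 CPM (12146 to 12433), a mean of 12003 ± 404 CPM (SD, n = 2). It ranked 18th in each library and 19th by mean level. Its HoxB relative Mir10a had 3186 counts (4988 CPM, interval 4816 to 5163) in replicate 1 and 12819 counts (5642 CPM, interval 5545 to 5740.1) in replicate 2, a mean of 5315 ± 463 CPM. Mir10b was thus higher than Mir10a in both libraries. The ratio of Mir10b to Mir10a counts was 2.35 in replicate 1 (interval 2.25 to 2.45) and 2.18 in replicate 2 (2.13 to 2.22). Mir10b made up 69.3% ± 1.14 of the counts of the pair. The counts of the pair, over both arms of the hairpins, were 16705 CPM of replicate 1 and 17930.3 CPM of replicate 2.

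Among the miR-196 genes, the order by counted reads was Mir196b, Mir196a-2 and then Mir196a-1. Mir196b of the HoxA cluster had 3185 counts in replicate 1 and 11738 in replicate 2. Its level was 4986 CPM (interval 4815 to 5162) and 5166 CPM (5073 to 5260.1), a mean of 5076 ± 127 CPM (SD, n = 2). Mir196a-2 of the HoxC cluster had 1013 and 4127 counts, which is 1586 CPM (1490 to 1686.5) and 1816 CPM (1761 to 1873), a mean of 1701 ± 163 CPM. The ratio of Mir196b to Mir196a-2 was 3.14 in replicate 1 (2.93 to 3.38) and 2.84 in replicate 2 (2.74 to 2.95).

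Mir196a-1 of the HoxB cluster was close to the limit of detection. It had 4 counts in replicate 1 (6.26 CPM, interval 1.71 to 16.0 CPM) and 25 counts in replicate 2 (11.003 CPM, interval 7.12 to 16.2 CPM). Mir196a-2 had 253 times as many counts as Mir196a-1 in replicate 1 (interval 98.6 to 931) and 165 times as many in replicate 2 (112 to 255). Both intervals lie far above 1, so counting error does not cover the distance. The comparison holds for the reads that match only 1 of the hairpins. How the reads of the shared 22 bases divide between the hairpins is not in these counts, and which arm the counted reads came from is not in the tables. Mir196a-2 was 1 of 12 genes at 1000 CPM or more in both libraries among the 1087 that share 20 or more bases with another microRNA gene.

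Mir615, whose family has no other member here, was detected at a lower level. It had 237 counts in replicate 1 and 627 in replicate 2, which is 371 CPM (interval 325 to 421) and 276 CPM (255 to 298), a mean of 323 ± 67.2 CPM (SD, n = 2). Its neighbour in the HoxC cluster, Mir196a-2, had 4.27 times its counts in replicate 1 (3.71 to 4.94) and 6.58 times in replicate 2 (6.05 to 7.17).

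**Figure D2:**
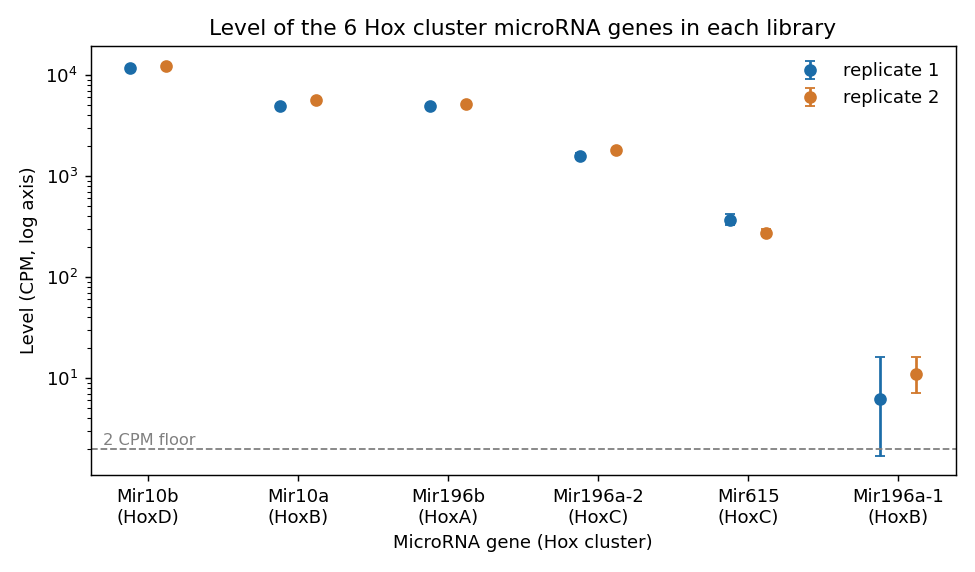
Level of each gene in replicate 1 (blue) and replicate 2 (orange), in CPM on a log axis, with exact 95% intervals of counting error; the dashed line is the floor of 2 CPM. Mir10a, at 4988 and 5642 CPM, and Mir196b, at 4986 and 5166 CPM, overlap, and the interval of Mir196a-1 in replicate 1 reaches from 1.71 to 16.0 CPM.

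The order of the 6 genes by mean level of counted reads was Mir10b, Mir10a, Mir196b, Mir196a-2, Mir615 and Mir196a-1. The places of Mir196a-2 and Mir196a-1 rest on counts that are lower limits. Of the 5 neighbouring pairs in that order, Mir10a and Mir196b did not differ beyond the spread between the libraries, and the libraries did not overlap in the other pairs. In replicate 1 Mir10a and Mir196b had nearly the same counts, 3186 and 3185. In replicate 2 the ratio of Mir10a to Mir196b was 1.09 (interval 1.07 to 1.12). By mean level over all genes of the tables, Mir10a ranked 28th, Mir196b 29th, Mir196a-2 45th, Mir615 97th and Mir196a-1 261st.

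The families and clusters held similar shares of the sum of the 6 in both libraries. Relative to their size, the shares of the 2 genes with the lowest levels differed most. In percentage points the share of Mir10a differed most. Mir10b gave 49.5% of the sum in replicate 1 and 48.8% in replicate 2. Mir10a gave 21.1% and 22.4%, Mir196b 21.1% and 20.5%, and Mir196a-2 6.70% and 7.21%. Mir615 gave 1.57% in replicate 1 and 1.10% in replicate 2, and Mir196a-1 gave 0.0265% and 0.0437%. By family, miR-10 held 70.6% and 71.2%, and miR-196 held 27.8% in each library. By cluster, HoxD held 49.5% in replicate 1 and 48.8% in replicate 2, HoxB 21.1% and 22.4%, HoxA 21.1% and 20.5%, and HoxC 8.27% and 8.30%. The HoxB share came almost wholly from Mir10a, which had 797 times the counts of Mir196a-1 in replicate 1 and 513 times in replicate 2. All these shares leave out reads that match both Mir196a-1 and Mir196a-2. The miR-196 share can therefore be too low, and the shares of miR-10, HoxD and HoxA too high, by an unknown amount. How much such reads would add to HoxB or HoxC is not known.

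The relatives of miR-10 outside the Hox clusters had the higher sum. These relatives, miR-99a, miR-100 and miR-99b, carry the seed ACCCGUA, and the longest stretch that miR-100-5p has in common with miR-10a-5p is 11 bases. The relatives with the most counts are printed for comparison with the miR-10 pair above, with the seed in capitals.
miR-99a-5p (Mir99a): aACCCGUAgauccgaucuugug
miR-100-5p (Mir100): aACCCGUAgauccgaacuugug
Mir99a had 28013 CPM in replicate 1 and 34625 CPM in replicate 2, Mir100 had 10993 and 17432 CPM, and Mir99b had 1844 and 3081 CPM. Their sum was 40849.8 CPM in replicate 1 and 55138 CPM in replicate 2, above the miR-10 sum in both. Mir10b stood above Mir100 in replicate 1 and below it in replicate 2: the ratio of Mir10b to Mir100 was 1.07 in replicate 1 (interval 1.03 to 1.10) and 0.705 in replicate 2 (0.694 to 0.716).

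The letters of the miR-196 seed also occur in let-7, the large family known for holding back proliferation, but moved by 1 base.
let-7g-5p (Mirlet7g): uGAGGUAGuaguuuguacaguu
The let-7 seed is GAGGUAG, and the 7 letters AGGUAGU of the miR-196 seed stand at bases 3 to 9 of 8 of the 9 let-7 and miR-98 5p sequences. Over all 1679 mature names of the RefSeq table, these letters occur anywhere in 13, on the strand of the microRNA. The 12 let-7 and miR-98 genes held 121991 CPM of replicate 1 and 124944 CPM of replicate 2. Of these 12 genes, 3 were lower in replicate 1 by the exact binomial test of the libraries, against 23.2% of all tested genes, and 9 did not pass. The 3 miR-196 genes summed to 6578 and 6993 CPM. Both sums leave out reads that match several genes.

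**Figure D3:**
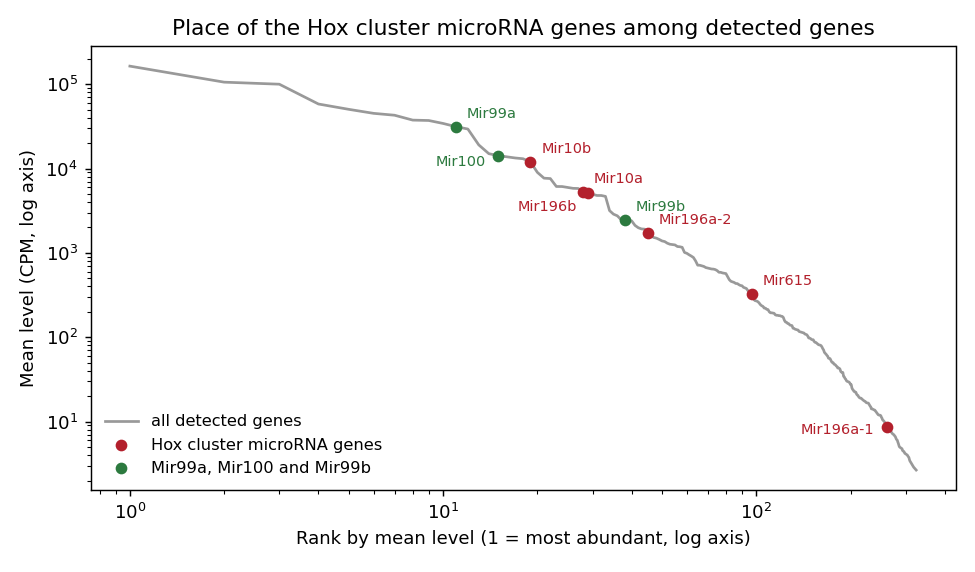
Mean level in CPM against rank among all genes, both on log axes, for the 303 detected genes (grey line), the Hox cluster microRNA genes (red) and Mir99a, Mir100 and Mir99b (green). Mir10b, Mir10a, Mir196b and Mir196a-2 lie within the first 45 ranks, Mir615 at 97 and Mir196a-1 at 261. Reads that match several places are not in these levels and ranks.

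Between the libraries, Mir615 was higher in replicate 1, Mir10b, Mir10a and Mir196a-2 were lower, and Mir196b and Mir196a-1 did not pass the test. For each of the 311 genes with a summed count of at least 10, the split of its counts was set against that of the totals in an exact binomial test (two-sided), with Benjamini-Hochberg adjustment over the 311 and a threshold of 0.05. With 1 library per labelled mouse the test sets the libraries against counting error alone and is no test of animals or conditions. Of the 6 genes 4 passed, against 40.5% of the 311 tested. Of the 4, Mir615 was higher in replicate 1, as were 17.4% of tested genes, and Mir10b, Mir10a and Mir196a-2 were lower, as were 23.2%. With TMM scaling the balance over all genes turned, with 64 higher and 57 lower in replicate 1, in place of 54 higher and 72 lower. Deep counts pass this test at small differences: of the 59 tested genes with a mean of 1000 CPM or more 81.4% passed, and so did 3 of the 4 Hox genes among them.

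Among the 6, Mir615 had the largest difference that passed, 371 CPM in replicate 1 against 276 CPM in replicate 2, a ratio of 1.34 (interval 1.15 to 1.56, adjusted p = 0.000583, exact binomial test). Mir10a was at a ratio of 0.884 (0.850 to 0.919, adjusted p = 2.04e-09) and Mir196a-2 at 0.873 (0.814 to 0.935, adjusted p = 0.000363), both by the same exact test. For Mir10b the ratio was 0.954 (0.929 to 0.978, adjusted p = 0.000901, exact), and with TMM scaling it was 0.994 and did not pass. Mir196b, at 0.965 (0.928 to 1.00), did not pass (adjusted p = 0.157, exact), and its ratio was 1.01 with TMM scaling. Mir196a-1 had a ratio of 0.569 with an interval of 0.144 to 1.65 (adjusted p = 0.568, exact), so with 4 and 25 counts a difference of that size was not detectable. The median size of the log2 ratio was 0.19 over the 6 genes and 0.38 over all tested genes, and it was 0.23 over the tested genes with a mean of 1000 CPM or more. When the spread between the libraries was counted as noise, in edgeR's exact test at a coefficient of variation of 27.6%, none of the 6 passed. That test called 2 of the 311 genes, and 20 had an unadjusted p under 0.05.

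The sum of the 6 was lower in replicate 1, at 0.939 of replicate 2. The 3 most abundant genes, Mir378a, Mir126a and Mir143, took 38.9% of counts in replicate 1 and 34.9% in replicate 2. Scaled to the counts outside these 3, the sum was 38700.3 CPM in replicate 1 and 38699.4 CPM in replicate 2. Not every scaling brought the libraries closer. The SD of the sum over the 2 libraries was 1093 CPM in the main setting, 371 CPM with TMM scaling and 1206 CPM with DESeq2 size factors.

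Several marker lists differed by more between the libraries than the Hox cluster sum. The striated muscle sum in replicate 1 was 0.439 of that in replicate 2; 4 of its 9 genes were lower in replicate 1, among them Mir206 at a ratio of 0.423, and 5 did not pass. The endothelial marker Mir126a had 81286 CPM in replicate 1 and 129798 CPM in replicate 2. The vascular smooth muscle genes Mir143 and Mir145a held 123068 CPM of replicate 1 and 81451 CPM of replicate 2, both higher in replicate 1. The fibroblast and mesenchyme list, with 4 of 5 genes detected and Mir199a-1 at 0, held 19699 CPM of replicate 1 and 11795 CPM of replicate 2. Nearly all of it was Mir21a, at 19072 and 10900 CPM, and the members went both ways: Mir21a and Mir199b were higher in replicate 1, Mir214 was lower at a ratio of 0.674, and Mir199a-2, at 0.323, did not pass. Red cell markers (2 of 2 detected, both higher in replicate 1) summed to 6176 and 4688 CPM. Leukocyte markers (4 of 4 detected) summed to 2542 and 2889 CPM and also went both ways: Mir142 was higher in replicate 1 at a ratio of 1.37, Mir150 (0.848) and Mir155 (0.810) were lower, and Mir223 (1.21) did not pass. Epithelial markers (5 of 7 detected) summed to 225 and 215 CPM, with Mir200c higher in replicate 1 and 4 not passing. Most of this sum was Mir203, at 169 CPM in replicate 1 and 174 CPM in replicate 2. The miR-10 relatives outside the clusters were all lower in replicate 1, with ratios of 0.809 for Mir99a, 0.631 for Mir100 and 0.599 for Mir99b, and all 3 passed, against 81.4% of tested genes with a mean of 1000 CPM or more. The part of tissue composition in the differences of the Hox genes was not tested.

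**Figure D4:**
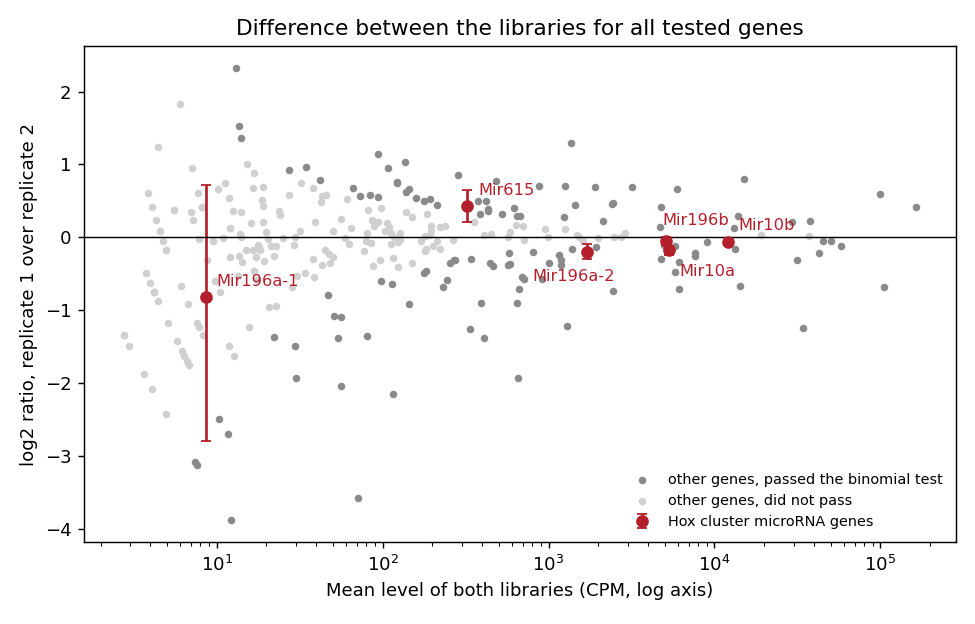
Log2 ratio of replicate 1 over replicate 2 against mean level in CPM (log axis) for the tested genes, with the Hox cluster microRNA genes in red and their exact 95% intervals of counting error. The 6 tested genes with 0 counts in 1 library are not drawn. Mir10b, Mir10a, Mir196b and Mir196a-2 lie between 0 and -0.20, and Mir615 lies at 0.43.

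For each of the 6, the 3 genes with the most similar levels were found by Euclidean distance in log2(CPM + 1) over the 2 libraries. Nearest to Mir10b were Mirlet7b (distance 0.220, 13328 CPM on average), Mir30e (0.222, 13059 CPM) and Mir30d (0.372, 13768 CPM). For Mir10a they were Mir196b (0.127), Mir411 (0.151) and Mir151 (0.193), and for Mir196b they were Mir411 (0.0645), Mir10a (0.127) and Mirlet7f-2 (0.215). Mir10a and Mir196b, which lie in different Hox clusters, were thus in each other's nearest 3. Mir196a-2 lay closest to Mir98 (0.136), Mir379 (0.256) and Mir93 (0.263), and Mir615 to Mir30b (0.268), Mir24-2 (0.314) and Mir148a (0.365). The genes nearest to Mir196a-1 were Mir205 (0.30), Mir6240 (0.328) and Mir183 (0.350). With 2 libraries this distance describes levels and says nothing of shared regulation.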

How the data were processed

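For each library the authors deposited a table of raw counts by microRNA gene, on mm10 with GENCODE M21 per the texts deposited beside it. The aligner is not given in the sources used here, nor is the counter. It holds 3 count columns without names after the identifiers. Column 3, with the identifiers as column 1, had the larger of the stranded totals. That column was read as the strand of the microRNA and used. The summary rows were kept out of the totals: they held 5.97% (replicate 1) and 6.93% (replicate 2) of reads as unmapped, 75.2% and 74.4% as multi-mapping, and 1.62% and 2.48% as without a feature. All 2202 identifiers matched GENCODE M21. Counts were divided by the total over genes (CPM). The exact binomial step was run on Poisson counts simulated for the genes with a summed count of at least 10. Such counts hold counting error alone, so they cannot show how the test behaves at the spread between these libraries. Identical stretches were searched on both strands of the annotated hairpins, and matches outside annotated microRNA genes, or with CAST alleles, were not analysed here. The members and lists were chosen with earlier results of these data known. Named genes are the 6 members, the 3 nearest genes to each, the relatives and the markers. Alternatives were TMM or DESeq2 scaling, the unstranded column, other floors, edgeR's exact test at its common dispersion, and leaving out each library. Software was Python 3.11.15, pandas 2.3.3, numpy 2.4.6, scipy 1.17.1, matplotlib 3.10.9, R 4.3.3, edgeR 4.0.16 and DESeq2 1.42.0.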

Additional observations from a re-analysis of the deposited data

How the results depend on the processing

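Of 69 recomputed values beside those that leave out a library, 54 kept their direction, their side of the threshold or their size. Numbers of genes were taken as kept when of similar size. The 54 therefore include 5 detected genes at 10 CPM in place of 6. They also include 114 genes that passed with the unstranded column, in place of 126. With the unstranded column the counts of 5 of the 6 genes were the same and Mir10a gained 1. The total over genes was smaller, 447110 in place of 638779 in replicate 1, as other genes had fewer counts there. Mir126a had 0 in place of 51924 in that library. The levels of the 6 genes rose through this total: 17143 CPM for Mir10b, 7591 for Mir10a and 7249.6 for Mir196b. Mir196a-2 stood at 2429 CPM, Mir615 at 462, Mir196a-1 at 12.3 and the sum at 34887. Without the 3 most abundant genes in the total, the sum was 38699.8 CPM. TMM scaling moved all log2 ratios by 0.06. It brought Mir10b to 0.994 (adjusted p = 0.825, exact binomial test) and turned Mir196b to 1.01, neither of which passed. With edgeR's exact test 2 of 311 genes passed, and Mir10a (0.884), Mir10b (0.954), Mir196a-2 (0.873) and Mir615 (1.34) no longer did. Its noise was estimated from the same 2 libraries that it compares, so not passing does not show that the libraries are alike. All 6 genes stayed detected at 1 count in both libraries and in each library alone, and 5 at 10 CPM. The comparison between the libraries has no value with a library left out. No paired analysis was possible because the series holds 1 group. Depth limits Mir196a-1 most, with 4 and 25 counts, and 2 libraries limit every SD.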
